A study of Mus musculus with 6 samples.

Results

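MHC class II genes and Ciita, the gene of their master regulator, were followed over all 6 arrays of an expression study in mouse fibroblasts. The genes were H2-Aa, H2-Ab1, H2-Eb1, H2-DMa, Cd74 and Ciita, and every probe set that the platform annotation gives to 1 of them alone was kept. That gave 7 probe sets for 6 genes, of 10833 probe sets for 8251 named genes in all, and 0 further probe sets listed a member among several symbols. The genes were chosen by their measured MAS5 signals on these 6 arrays, because they were read on 1 array only. For that reason their levels and every difference between these arrays are given here as a description, with no test.

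The cells were clone 35/1-22 of NIH3T3, an immortalised mouse embryonic fibroblast line. All groups carried the same 2 additions: c-myc and Ha-ras, both oncogenes, behind a Tet-off promoter that doxycycline keeps silent, and an IRF-1hER fusion protein. IRF-1 is an interferon-induced transcription factor, joined here to human estrogen receptor sequence. The fusion is made constantly and estradiol activates it. RNA was hybridised to 1-colour Affymetrix arrays, 1 array per sample and 2 per group. The estradiol group had the oncogenes on by design and received estradiol for 48 h, with a labelled dose of 1 mM. In the withdrawal group the oncogenes were on by design, without estradiol. The doxycycline group received 2 µg/ml doxycycline and had the oncogenes off. A single clone was used, so nothing here shows how other clones behave, and the labels do not say that replicates came from separate cultures. Replicate 1 of each group was extracted with an RNeasy kit and replicate 2 with TRIzol.

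One label is in conflict. The title of doxycycline replicate 2 names estradiol beside doxycycline, while its treatment entry lists doxycycline alone, and it was kept in the doxycycline group. Between the doxycycline arrays, 283 of 7453 tested probe sets differed at least 2-fold. The count was 16 between estradiol replicate 1 and withdrawal replicate 1 and 920 between the withdrawal arrays. Withdrawal replicate 2 was closer to the doxycycline arrays, with 324 against replicate 1 and 582 against replicate 2. On which arrays the oncogenes were in fact on was not tested. Trimmed means were 150.09 to 150.1 on all 6 arrays and median signals 49.7 to 52.65, so the arrays had been brought to a common level, and their number limits the precision of every value. The fibroblast collagen Col1a1 was bright on every array, between 4211.0 and 6870.6 for its brighter probe set.

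MHC class II molecules are pairs of an alpha and a beta chain that present peptides from endocytosed proteins to CD4+ T cells. Cd74, the invariant chain, blocks the peptide groove during transport, and H2-DM later exchanges the remaining fragment for a peptide. Dendritic cells and B cells make these proteins constantly. Fibroblasts are known to make them after exposure to interferon gamma, which switches on Ciita. Ciita is a coactivator that assembles on the promoters of class II genes without binding DNA itself.

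The class II genes were read as bright on doxycycline replicate 2 and as dim or moderate on the other 5 arrays. All values below are MAS5 signals, an intensity on a linear scale, and differences are taken on the log2(signal + 32) scale, where the added constant shrinks the change of a dim probe set. In such bulk RNA, fewer cells making a transcript and less of it per cell cannot be told apart. H2-Aa, the alpha chain of the I-A molecule, had signals of 7.7 and 6.5 in the estradiol arrays, 6.5 and 4.1 in the withdrawal arrays, and 4.8 and 1316.5 in the doxycycline arrays (replicates 1 and 2 in each case). A single array was bright, and the first doxycycline array lay among the estradiol and withdrawal arrays. H2-Ab1, the beta chain that pairs with it, had signals of 10.5 and 10.7 with estradiol, 9.8 and 7.7 after withdrawal, and 20.5 and 249.7 with doxycycline. Here both doxycycline arrays were above the other 4, although only the second was clearly so. H2-Eb1, the beta chain of the I-E molecule, had signals of 13.8 and 44.7 with estradiol, 31.7 and 59.6 after withdrawal, and 52.8 and 293.0 with doxycycline. Its second doxycycline array was again the highest, and the doxycycline and withdrawal arrays overlapped.

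**Figure D1:**
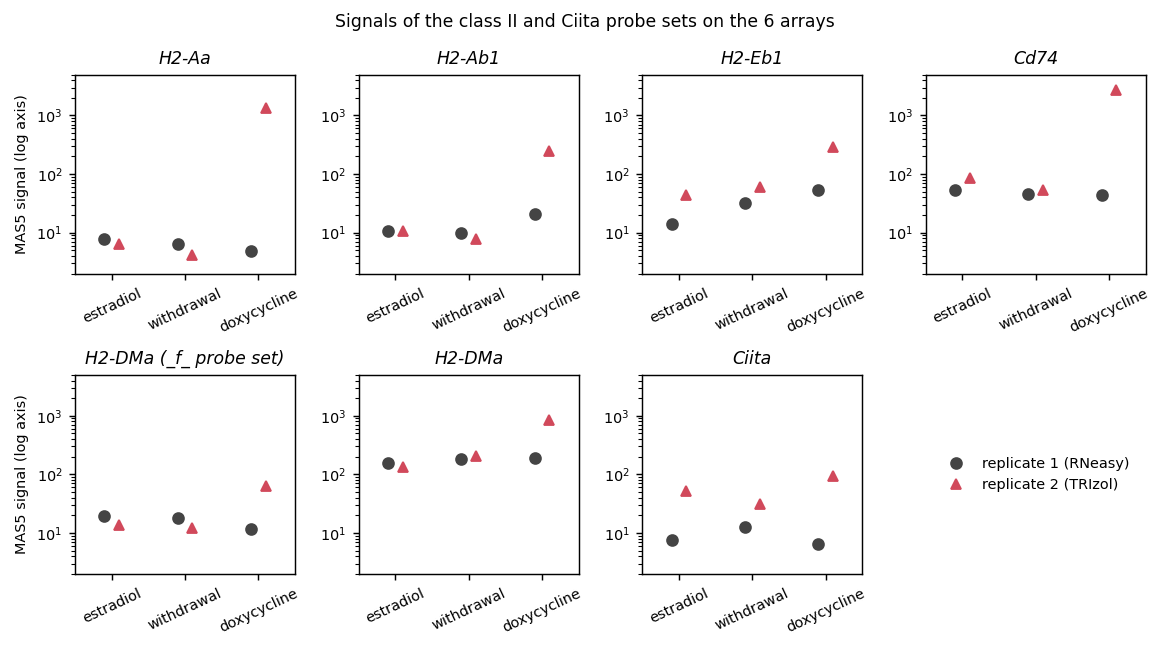
MAS5 signal (log axis) of each of the 7 probe sets by group, with replicate 1 (RNeasy) as circles and replicate 2 (TRIzol) as triangles, 1 point per array. Doxycycline replicate 2 is the highest point in all 7 panels, from 62.7 for the dimmer H2-DMa probe set to 2742.7 for Cd74, and Ciita is also higher in replicate 2 of the other groups.

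The chaperones of the pathway showed the same array as the highest. Cd74, the invariant chain, had signals of 53.3 and 86.0 with estradiol, 46.3 and 52.5 after withdrawal, and 43.4 and 2742.7 with doxycycline. The doxycycline group thus held both the lowest and the highest of its 6 values. H2-DMa, the alpha chain of the peptide exchange factor, was read by 2 probe sets. The brighter of them had signals of 159.0 and 135.3 with estradiol, 180.3 and 209.0 after withdrawal, and 192.2 and 845.3 with doxycycline. The dimmer one, of the kind whose probes can be shared within a gene family, had 19.4 and 13.4, then 18.0 and 12.1, then 11.8 and 62.7 in the same order. Both put doxycycline replicate 2 first, and they disagreed on the order of the other arrays.

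Ciita, the regulator, was the gene whose highest array stood apart the least. Its signals were 7.6 and 52.8 with estradiol, 12.7 and 30.6 after withdrawal, and 6.5 and 92.9 with doxycycline. In each of the 3 groups replicate 2 was above replicate 1, and the lowest TRIzol array (30.6) lay above the highest RNeasy array (12.7). None of the other 6 probe sets separated the arrays by extraction in that way. How many of all probe sets separate in that way was not counted, so the separation is given for Ciita as a description only. The part of the extraction method in the result was not tested.

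Where a lead is the log2 value of doxycycline replicate 2 minus that of the highest of the 5 other arrays, H2-Aa had a lead of 5.09 and Cd74 one of 4.56. On this scale they ranked 2 and 3 among all 12422 non-control probe sets. H2-Ab1 followed with 2.42, the brighter H2-DMa probe set with 1.86 and H2-Eb1 with 1.83, at ranks 27, 45 and 46. The dimmer H2-DMa probe set, at 0.88, and Ciita, at 0.56, stood at ranks 114 and 224 and did not reach a lead of 1. With a pseudocount of 1 in place of 32, the leads were 7.24 for H2-Aa, 4.98 for Cd74 and 1.64 for the dimmer H2-DMa probe set, so the sizes, and the order among genes, depend on that constant. Of the 7 probe sets, 5 had a lead of at least 1 on doxycycline replicate 2, which holds for 0.797% of all probe sets. All 7 were highest on that array, as 20.4% of all probe sets were. The median lead was 1.86, against -0.27 over all probe sets. These shares restate how the genes were picked and are no evidence about them.

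Set against the first doxycycline array alone, doxycycline replicate 2 was at least 2-fold higher for all 7 probe sets, as it was for 1.63% of all probe sets. The log2 difference was 5.20 for H2-Aa and for Cd74, 2.42 for H2-Ab1, 1.97 and 1.11 for the H2-DMa probe sets, 1.94 for H2-Eb1 and 1.70 for Ciita. Ciita thus differed more between the doxycycline arrays than from its next highest array, which was estradiol replicate 2. The spread within the doxycycline group was large in consequence: H2-Aa averaged 7.80 ± 3.67 and H2-Ab1 6.93 ± 1.71 there (log2 scale, SD, n = 2), while H2-Aa averaged 5.29 ± 0.03 with estradiol and 5.22 ± 0.07 after withdrawal.

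**Figure D2:**
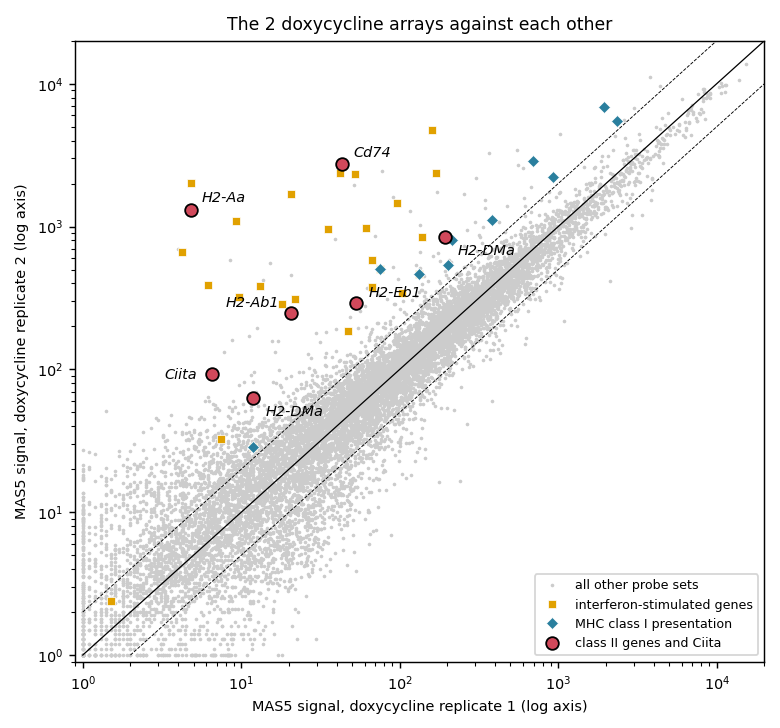
Signal of every non-control probe set on doxycycline replicate 2 (vertical) against doxycycline replicate 1 (horizontal), both on log axes, with equality as a solid line and a 2-fold difference as dashed lines. The class II probe sets and Ciita lie above the upper dashed line, with Cd74 at 2742.7 against 43.4 on the 2 arrays, and so do most interferon-stimulated genes (squares) and MHC class I genes (diamonds).

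The promoters of class II genes are known to share a short module in which an X box, bound by the RFX complex, lies a fixed way upstream of a Y box, bound by NF-Y, and Ciita docks on the assembled proteins. Because 5 of the 6 genes are described as its targets, 3 promoters are shown, 2 of members and 1 of H2-DMb1, the beta partner of H2-DMa. RefSeq promoter windows (GRCm38.p6, 250 bases before to 50 after each transcript start) matched 3 of the 6 genes, with 2 windows for H2-DMa. The 150 bases just before the start are printed 5′ to 3′ on the gene's strand, H2-Aa from chr17:34287824-34287973 (minus strand), H2-Eb1 from chr17:34305717-34305866 (plus strand) and H2-DMb1 from chr17:34153041-34153190 (plus strand). Capitals mark the letters of a Y box (GATTGG), an X box (GNAACNNAT) or a cyclic AMP response element (TGACGTCA), on either strand.
H2-Aa: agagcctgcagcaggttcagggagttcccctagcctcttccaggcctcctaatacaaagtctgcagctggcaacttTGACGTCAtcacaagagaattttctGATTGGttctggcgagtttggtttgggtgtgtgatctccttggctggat
H2-Eb1: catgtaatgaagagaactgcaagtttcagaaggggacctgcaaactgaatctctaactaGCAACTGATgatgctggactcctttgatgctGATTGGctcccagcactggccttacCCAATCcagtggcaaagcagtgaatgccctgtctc
H2-DMb1: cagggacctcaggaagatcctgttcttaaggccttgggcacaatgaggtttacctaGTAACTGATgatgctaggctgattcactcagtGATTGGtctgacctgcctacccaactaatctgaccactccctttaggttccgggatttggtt

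In H2-Eb1 the X letters began 91 bases and the Y letters 60 bases before the start, 31 bases apart, with a second Y match on the other strand 35 bases before it. H2-DMb1 had the same arrangement at 94 and 62 bases, 32 apart. H2-Aa had Y letters at 49 bases and the cyclic AMP response element letters at 74, and the X letters as spelled here were not in its window. The windows of H2-DMa held X letters 227 bases before one start and Y letters 199 bases before the other. No marked match overlapped another. The letters were chosen with these sequences in view.

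Single boxes are common: of 32851 promoter windows, 16.1% held the Y letters, 7.92% the X letters and 1.79% the cyclic AMP response element letters. X letters followed by Y letters 20 to 40 bases downstream on 1 strand were in 0.0578%, or 19 windows. H2-Ob, the beta chain of the DM inhibitor H2-O, had the pair at 87 and 58 bases, and H2-Eb2, a second E beta gene, at 132 and 101. Their probe sets read 4.6 and 4.2 on doxycycline replicate 2, so both genes carried the letters and were dim on that array. The letters GAAANNGAA of an interferon response element, present in 8.56% of all windows, were not in the windows of these class II genes, which says nothing of the factors that bind them.

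**Figure D3:**
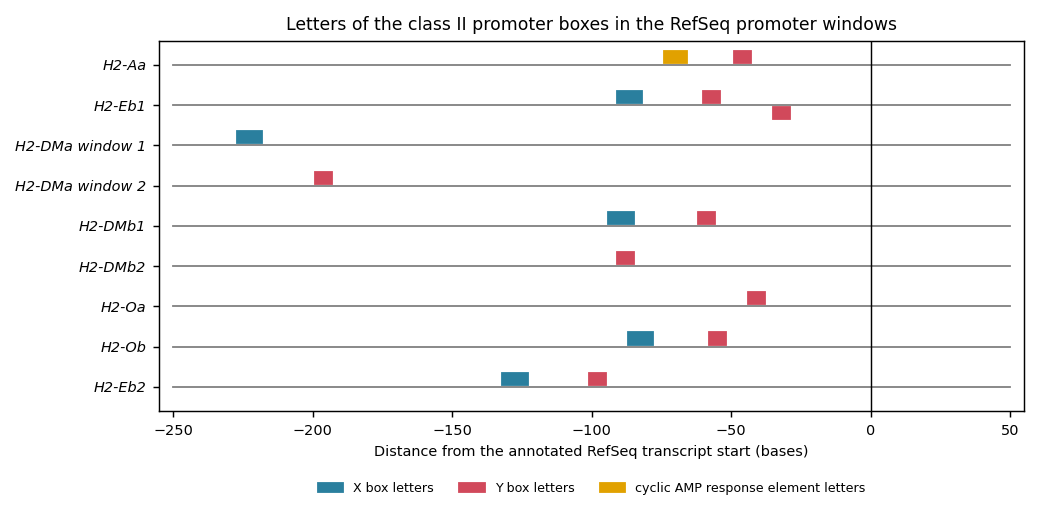
Position of the X box, Y box and cyclic AMP response element letters in the RefSeq promoter windows of class II genes, in bases from the annotated transcript start, with matches on the gene's strand above the line and on the other strand below it. H2-Eb1, H2-DMb1, H2-Ob and H2-Eb2 show X letters followed by Y letters 29 to 32 bases downstream.

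Withdrawal against doxycycline, which asks what the oncogenes change, depended on which doxycycline array was used. The log2 difference averaged -2.58 for H2-Aa, -2.49 for Cd74, -1.58 for H2-Ab1, -1.12 for H2-Eb1, -0.97 and -0.46 for the H2-DMa probe sets and -0.39 for Ciita. By replicate number these averages came apart: H2-Aa stood at 0.07 in replicate 1 and at -5.22 in replicate 2, and Cd74 at 0.05 and -5.04. In replicate 1, 3 of the 7 probe sets were lower and 4 higher, with a median of 0.05. In replicate 2 all 7 were lower, with a median of -1.86. Without doxycycline replicate 2, the withdrawal mean lay 0.02 from the remaining doxycycline array for H2-Aa, 0.11 for Cd74, 0.01 for the brighter H2-DMa probe set and -0.15 for H2-Eb1. H2-Ab1, at -0.37, and Ciita, at 0.46, were the farthest from it. Doxycycline itself differs between these groups, so its effects and those of the oncogenes cannot be told apart.

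With estradiol against doxycycline, the same array set the averages. They were -2.51 for H2-Aa, -2.19 for Cd74, -1.51 for H2-Ab1, -1.49 for H2-Eb1, -1.31 and -0.41 for H2-DMa and -0.26 for Ciita. All 7 were lower in replicate 2 (median -2.39), while in replicate 1, 3 were lower and 4 higher (median 0.04). Without doxycycline replicate 2, the estradiol mean differed from the other doxycycline array by 0.09 for H2-Aa, 0.41 for Cd74, -0.52 for H2-Eb1, -0.33 for the brighter H2-DMa probe set, -0.30 for H2-Ab1 and 0.59 for Ciita. Both comparisons share the doxycycline arrays. Between the estradiol and doxycycline groups, doxycycline, the oncogenes and estradiol all differ by design, so their effects cannot be told apart. The array that set the averages is also the one whose title names estradiol.

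Estradiol against withdrawal, which asks what active IRF-1 does in cells with the oncogenes on, does not involve the doxycycline arrays. The replicate 1 arrays of these groups differed at least 2-fold in 16 of 7453 tested probe sets. Over 23 tested interferon-stimulated genes, the median difference was 0.01 (0.06 and -0.1 by replicate). Whether estradiol had activated the fusion on these arrays was not tested. The median difference of the 7 probe sets was 0.06, with 0.02 in replicate 1 and 0.09 in replicate 2, against 0.01 over all non-control probe sets. H2-Aa differed by 0.07, H2-Ab1 by 0.06, Cd74 by 0.30 (0.12 and 0.48 by replicate) and Ciita by 0.13 (-0.17 and 0.44). The brighter H2-DMa probe set stood at -0.34 (-0.15 and -0.53) and H2-Eb1 at -0.37 (-0.48 and -0.26). With estradiol Cd74 was thus higher in both replicate numbers. So were H2-Aa (0.04 and 0.09), H2-Ab1 (0.02 and 0.11) and the dimmer H2-DMa probe set (0.04 in each). H2-Eb1 and the brighter H2-DMa probe set were lower in both.

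Across all probe sets, limma (Benjamini-Hochberg adjusted p, threshold 0.05) called 0 of 7453 in each of the 3 comparisons (0.0%). Of the 7 member probe sets, 4 passed the filter on dim probe sets, among them H2-Aa, whose signal was under the filter level of about 29.0 on every array but doxycycline replicate 2. The smallest adjusted p from limma was 0.835 for withdrawal against doxycycline, 1.00 for estradiol against withdrawal and 0.255 for estradiol against doxycycline. In the same order, 326 probe sets (4.37%), 52 (0.698%) and 1041 (14.0%) had an unadjusted p under 0.05. Without doxycycline replicate 1, limma called 26 probe sets in withdrawal against doxycycline and 28 in estradiol against doxycycline, all lower than doxycycline replicate 2. That fit has 1 doxycycline array and assumes it varies like the other groups, and since the members were chosen for their signal on that array, it is no test of them.

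Other class II genes and regulators of the pathway followed the members only in part. Of 24 such genes on the array, 1 had a lead of at least 1 on doxycycline replicate 2, against 0.873% of all named genes read by their brightest probe set, and their median lead was -0.13. That gene was H2-DMb1, with signals of 262.7 and 190.2 with estradiol, 270.7 and 192.0 after withdrawal, and 318.7 and 879.4 with doxycycline. It stood at -1.12 (SE 0.45, limma adjusted p = 0.925) for withdrawal against doxycycline and at -1.14 (SE 0.45, limma adjusted p = 0.329) for estradiol against doxycycline. Both chains of the DM exchange factor were therefore highest on doxycycline replicate 2.

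H2-DMb2, a second DM beta gene, had 50.8 on doxycycline replicate 2 against 8.8 to 36.0 on the others, a lead of 0.28. H2-Oa, the alpha chain of the DM inhibitor, had 30.0 against 13.8 to 28.4. H2-Ea, the alpha chain that pairs with H2-Eb1, had 5.9 against 2.3 to 9.9. H2-Eb1 was therefore bright on an array where the H2-Ea probe set was dim. Ctss, the protease cathepsin S that trims the invariant chain, had 40.7 against 6.6 to 18.4. Rfxank, a subunit of the RFX complex, had 85.6 against 64.6 to 96.2. Rfx5 and Rfxap, the other RFX subunits, were not analysed here.

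Genes upstream of Ciita mostly did not stand out on doxycycline replicate 2. Of 12 on the array, 1 had a lead of at least 1, against 0.873% of all named genes, and the median lead was -0.24. It was Socs1, a feedback inhibitor of interferon signalling, with 1081.3 on doxycycline replicate 2 against 336.7 to 463.6 on the others. Irf1, which drives a Ciita promoter and whose fusion protein all the cells carry, had signals of 224.7 and 155.2 with estradiol, 211.8 and 204.3 after withdrawal, and 219.1 and 319.8 with doxycycline. Its lead was 0.45, and the labels do not say whether its probe set reads the fusion transcript. Ifng, the gene of interferon gamma, had 4.3 on doxycycline replicate 2 against 0.8 to 4.9. Its receptor genes Ifngr1 and Ifngr2 were lower there than on every other array, at 52.3 against 56.6 to 84.0 and 67.2 against 77.4 to 104.8.

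The pattern extended well beyond class II. The 10 named genes with the largest leads on doxycycline replicate 2 outside the members, over 6 arrays and with a signal of at least 100 there, were Ccl5, Ifit3, Usp18, Ifit1, Isg15, Slfn2, Irgm2, Igtp, Rsad2 and Saa3. Ccl5, a chemokine, had 2027.8 against at most 24.0 elsewhere (lead 5.20). That lead is above the 5.09 of H2-Aa with the pseudocount of 32, while on the linear scale the ratio to the next highest array was 84.5 for Ccl5 and 171 for H2-Aa. Isg15, a ubiquitin-like protein, had 4709.4 against at most 299.1 (3.84), and Ifit3, an antiviral protein, 2339.1 against at most 74.1 (4.48). Irgm2 and Igtp, immunity-related GTPases, had leads of 3.55 and 3.41, and Saa3, an acute-phase protein, one of 3.27.

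Among all named genes, 0.873% had a lead of at least 1. For the class II members it was 5 of the 6, with a median of 2.14. Of 26 interferon-stimulated genes on the array, 23 had such a lead, with a median of 2.38. Their summed signal was 25746 on doxycycline replicate 2 and 1372 to 2063 on the others, and for the members it was 5540 against 252 to 364. MHC class I presentation genes were also highest there, in 10 of 10 genes, as 20.4% of all probe sets were. Of these genes, 6 had a lead of at least 1, and the median was 1.24. B2m, the class I light chain, had 5474.1 against at most 2363.1 (lead 1.20), and Tap1, a subunit of the peptide transporter, 469.2 against at most 150.7 (1.46). Psmb8, Psmb9 and Tap1 are on both lists. The other arrays had few such probe sets: a lead of at least 1 occurred in 99 probe sets on doxycycline replicate 2, 21 on withdrawal replicate 2, 11 each on estradiol replicate 2 and doxycycline replicate 1, 1 on estradiol replicate 1 and 0 on withdrawal replicate 1.

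**Figure D4:**
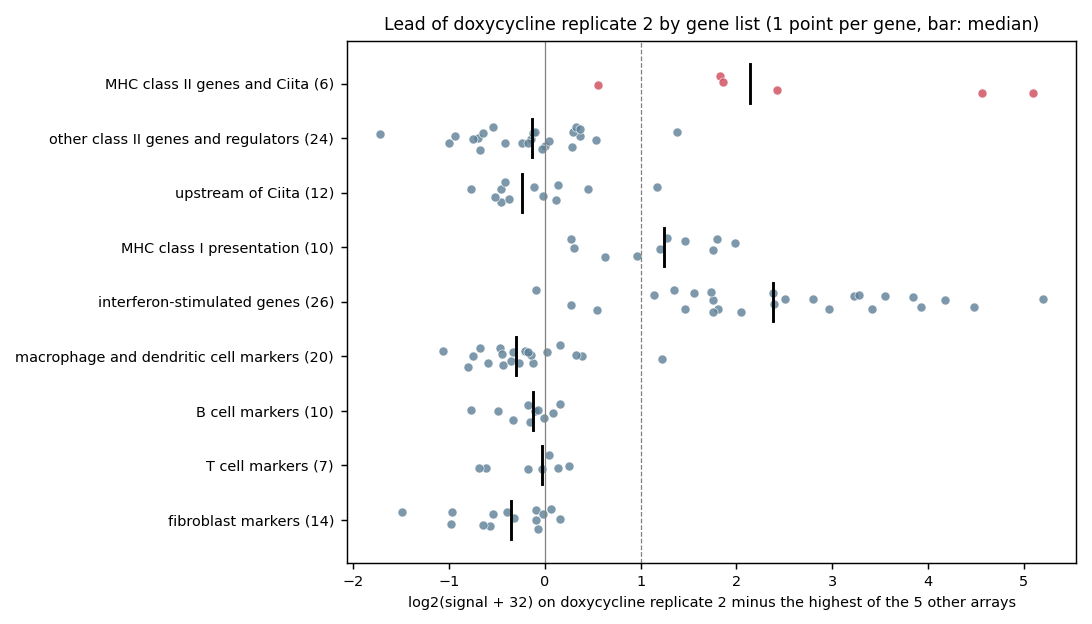
Lead of doxycycline replicate 2 over the highest of the 5 other arrays (log2(signal + 32) difference), 1 point per gene read by its brightest probe set, with the number of genes in parentheses and the median as a bar. Class II members, class I genes and interferon-stimulated genes lie mostly above 1 (dashed line, medians 2.14, 1.24 and 2.38), and the cell type markers lie around 0.

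Markers of immune cells were mostly dim on doxycycline replicate 2, with exceptions. Of 32 probe sets for 20 macrophage and dendritic cell genes, 24 had a signal under 32 on that array, and the summed signal of the genes was 997 there against 823 to 927 on the others, the highest of the 6. Doxycycline replicate 2 was the highest array for 5 of the 20 genes: Mpeg1, Cd14, Itgax, Fcgr3 and Msr1. That share is near the 20.4% of all probe sets, so it does not set the list apart. Ptprc, the leukocyte antigen CD45, had 1.4, 0.4 and 4.3 for its 3 probe sets, and Itgam, an integrin of myeloid cells, had 7.7. Csf1r, the macrophage growth factor receptor, had 34.0 and 103.1 for its 2 probe sets, each within the range of the other arrays, and Cd68 had 70.1 and 1.9. Mpeg1, a macrophage perforin, was the 1 gene of the list with a lead of at least 1, at 95.8 against 6.6 to 23.0. Such a lead held for 0.873% of all named genes. The other Mpeg1 probe set had 2.7 on doxycycline replicate 2 against 0.5 to 9.5. Cd14, a coreceptor for lipopolysaccharide, had 379.1 against 257.4 to 334.9, the integrin Itgax 58.5 against 14.8 to 37.0, the Fc receptor Fcgr3 52.0 against 9.4 to 34.9 and the scavenger receptor Msr1 31.4 against 13.9 to 30.5. Their part in the class II signal was not tested.

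B cell markers had 26 of 29 probe sets under 32 on doxycycline replicate 2, with Cd79a at 16.8 and Cd79b at 8.5, parts of the B cell receptor. Their summed signal over 10 genes was 284 there, against 211 to 288 on the other arrays. T cell markers had 7 of 8 probe sets under 32 and a sum of 136 over 7 genes, against 83 to 167. Of 14 fibroblast genes, 0 had a lead of at least 1, and their sum was 28405, against 16830 to 31002.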

How the data were processed

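RNA of 6 samples was hybridised to 1-colour arrays, and the authors' deposited values are MAS5 signals, an intensity per probe set on a linear scale, per the submitters' processing notes. The MAS5 version, its settings and a genome build are not named in the sources used here. Signals were scaled to a common mean (2% trimmed at each end) and turned into log2(signal + 32). Of 12488 probe sets, 66 were controls, and 10833 had 1 gene symbol, 396 several and 1193 none. For tests, the lowest 40% by mean log2 signal (below about 29.0) were left out, which kept 4 of the 7 member probe sets. On the remaining 7453, limma 3.58.1 (R 4.3.3) was run with 1 mean per group, a trend in intensity, 3 residual and 5.23 prior degrees of freedom, two-sided p-values and Benjamini-Hochberg adjustment. P-values measure only how these arrays vary, which may be technical. The code was checked on simulated data.

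The members, the gene lists, the named genes and the alternatives were chosen with earlier results of these data known. Named were all members, other class II genes and markers on a list given beforehand or with a lead of at least 1 on doxycycline replicate 2, and the 10 genes with the largest leads at a signal of at least 100. Examples from the interferon and class I lists were chosen after their values were seen. Cd14, Itgax, Fcgr3 and Msr1 were named because doxycycline replicate 2 was their highest array. Ifng, Ifngr1, Ifngr2 and H2-Eb2 were named outside these rules. By the labels, each replicate number had its own extraction method, so the number and the method cannot be told apart. Deviations from the group means correlated by number at 0.449 between the estradiol and withdrawal groups, -0.0284 between estradiol and doxycycline and -0.00727 between withdrawal and doxycycline. Alternatives were other pseudocounts, quantile normalization, other filters, no trend, the replicate block and leaving out each array.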

Additional observations from a re-analysis of the deposited data

How the results depend on the processing

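A lead of at least 1 on doxycycline replicate 2 was reached by 6 of the 7 member probe sets with a pseudocount of 1, and by 5 with one of 64 or with quantile normalization. The H2-Aa lead was 7.24, 4.27 and 5.07 in these settings, against 5.09. Dropping doxycycline replicate 2 was an alternative chosen after seeing the data. Then 0 of the 7 probe sets had a lead of at least 1 on any of the other 5 arrays. That outcome restates how the genes were picked. With all 6 arrays kept, such a lead held for 0.0% to 0.169% of all probe sets on each of those 5 arrays. The median member difference for estradiol minus withdrawal was 0.12 with a pseudocount of 1, against 0.06. Leaving out each array in turn, the member medians ranged from -2.09 to 0.02 for withdrawal minus doxycycline, from 0.02 to 0.10 for estradiol minus withdrawal and from -2.46 to 0.09 for estradiol minus doxycycline. Over the same fits the called probe sets ranged from 0 to 26 for withdrawal minus doxycycline (26 without doxycycline replicate 1), from 0 to 17 for estradiol minus withdrawal (17 without withdrawal replicate 1) and from 0 to 133 for estradiol minus doxycycline (131 and 133 without withdrawal replicate 1 or 2, 28 without doxycycline replicate 1). Called genes of the lists ranged from 0 to 12 for withdrawal minus doxycycline and from 0 to 11 for estradiol minus doxycycline (1 without either withdrawal array), and were 0 for estradiol minus withdrawal. The cause of these shifts was not tested. With the replicate number as a block, 0 probe sets were called in each comparison, and the block changed no other call. The other filters, scalings and pseudocounts also gave 0. Of 189 member differences under alternatives, 26 moved by more than the spread between replicates. MAS5 detection calls were not used, so dim signals such as the 4.1 to 7.7 of H2-Aa have no tested limit of detection.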

Other observations

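Genes that prepare antigen for class II molecules differed among themselves. The genes of this paragraph were chosen after their values were seen. Ctsb, the lysosomal protease cathepsin B, was read by 4 probe sets, of which only the brightest is given. It had signals of 1952.6 and 1501.7 with estradiol, 1985.6 and 2582.1 after withdrawal, and 3300.8 and 4029.9 with doxycycline. Its doxycycline arrays were above the other 4, with a log2 difference of -1.08 for estradiol against doxycycline (SE 0.30, limma adjusted p = 0.255). The share of all probe sets with that order of arrays was not counted. The cathepsins Ctsl and Ctsd were also highest on doxycycline replicate 2, at 2650.9 against 1522.4 to 2043.0 and 3433.2 against 1358.1 to 2729.2. Ifi30, a lysosomal thiol reductase also known as an interferon-inducible gene, ran the other way. It had 194.3 and 330.2 with estradiol, 222.5 and 165.8 after withdrawal, and 118.5 and 78.0 with doxycycline, and was lowest on doxycycline replicate 2 (1.15 for estradiol against doxycycline, SE 0.33, limma adjusted p = 0.257). The costimulators Cd80, Cd86 and Cd40 had 51.5, 41.8 and 26.8 on doxycycline replicate 2, each below the highest of its other arrays. Cxcl9, a chemokine on the list of interferon-stimulated genes, had 2.4 there against 1.5 to 4.6. Of the 26 genes of that list on the array, 25 were highest on doxycycline replicate 2, as 20.4% of all probe sets were.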
